A study of Nasonia vitripennis with 9 samples.

Results

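Injection of dsGFP, double-stranded RNA matching green fluorescent protein (GFP), was compared with injection of water in the parasitoid wasp Nasonia vitripennis. The comparison uses every dsGFP library and every water library, 6 of the 9 libraries in the series, and the 3 uninjected libraries serve as a reference level and for the estimate of spread. All animals were males of the laboratory strain AsymCX, a line cleared of its Wolbachia bacteria, reared on Calliphora hosts at 25 °C. Larvae of the second instar, near day 3 after the eggs were laid, were laid on agarose and injected at the posterior end. The dsGFP group received GFP dsRNA (4 µg/µl) in dyed water, coloured with red food dye, and the water group received the dyed water alone. Both were then returned to hosts, 6 to 8 larvae to a host, and collected 5 to 6 days later. The labels name the collected stage as white pupae in one place and as larvae in another. Every library was made from a pool of 5 whole animals, and nothing in the labels tells whether pools within a group had separate origins. The p-values therefore reflect pool-to-pool spread only, which may be technical. Members of the nervous system, muscle, cuticle and germ line lists used below were detected in these whole animals.

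RNA interference begins when the enzyme Dicer cuts long double-stranded RNA into short interfering RNAs. An Argonaute protein carries one strand of each short RNA in the RNA-induced silencing complex and cuts transcripts that pair with it. Green fluorescent protein has no gene in the wasp, and for that reason dsGFP is a common control in RNA interference experiments on insects. Water-injected animals share the wound, the dye and the handling with dsGFP-injected animals, so the contrast between them differs by design in the dsRNA.

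The 6 injected libraries held 33885222 to 37100106 counts in genes. Gene totals were 34754300 ± 1093930 with dsGFP and 36729200 ± 487110 with water (SD, n = 3 each; two-sided exact permutation p = 0.1, the smallest that 3 against 3 libraries allow). A count of 0 in an injected library allows a level of up to 3 counts, or 0.0773 to 0.0988 CPM (the count per gene scaled to a common effective library size). Levels in different pairs of libraries were about as far apart within a group as between the groups, with a median absolute log2 difference per gene of 0.137 to 0.224 within and 0.117 to 0.276 between. The leading difference among the injected libraries separated the groups only in part. On the first principal component of the 500 most variable genes, which held 54.8% of their variance, water 2 stood at 34.8, water 3 at 6.56 and water 1 at -8.05, and dsGFP 3 stood at 6.42, dsGFP 1 at -19.2 and dsGFP 2 at -20.6. Of the 36 tested genes of the cuticle list 21 were among these 500 genes. Their list summed to 25416, 40446 and 6081 CPM in dsGFP 1, 2 and 3 and to 23579, 2475 and 13600 CPM in water 1, 2 and 3, so that dsGFP 3 and water 2 were the low libraries of their groups. The part of this difference in the results below was not tested beyond leaving out libraries.

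No gene passed the test of dsGFP against water. By edgeR's quasi-likelihood test with Benjamini-Hochberg adjustment 0 of 11665 tested genes were called (background 0%, smallest adjusted p = 0.702), and limma-voom called 0. DESeq2 called 6 genes, 0.0514% of those tested, 3 of them higher and 3 lower in the dsGFP group (0.0257% each). At an unadjusted p under 0.05, edgeR held 710 genes (6.09%), 157 higher with dsGFP (1.35%) and 553 lower (4.74%). These 2 counts changed with the libraries kept. They were 86 higher and 238 lower when dsGFP 2 was left out, and 53 higher and 262 lower without water 2. Without dsGFP 3 they were 266 and 744, and without water 1 they were 197 and 516. Each of these fits also had fewer libraries, and the part of that was not tested. Every dsGFP library lay above every water library for 557 genes (4.77%) and below every water library for 883 (7.57%). Of the genes below 10 CPM more than the even share had lower fitted values with dsGFP, 60.2% of the 2295 genes at 1 to 10 CPM, against 35.2% of the 2132 genes at 100 to 1000 CPM. Depth differed between the groups in the same direction, and its part in this difference was not tested.

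The data bound the change tightly for most genes. The fitted fold change had a 95% interval wholly within 2-fold for 9682 genes (83.0%) and wholly within 1.5-fold for 7496 (64.3%). Equivalence within 2-fold passed for 10032 genes (86.0%) by 2 one-sided tests with adjustment over all genes. Despite the adjustment this was here a less strict criterion than the 95% interval, since more genes passed it. The bound depended on the level. The median half-width of the interval was 0.91 on the log2 scale under 1 CPM, where 22.7% of 1267 genes were held within 2-fold, and 0.28 at 10 to 100 CPM, where 94.1% of 5884 genes were. Above 1000 CPM, where several cuticle genes lie, it widened to 0.40 and 72.4% of 87 genes were held. The middle 95% of fitted log2 fold changes ran from -0.64 to 0.70, with a median of 0.01 that turned to -0.03 with upper-quartile scaling. Fitted values lay beyond 2-fold for 128 genes on the higher side (1.10%) and 62 on the lower side (0.532%). No gene was at 0 in one injected group and at 10 or more counts in all 3 libraries of the other.

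**Figure D1:**
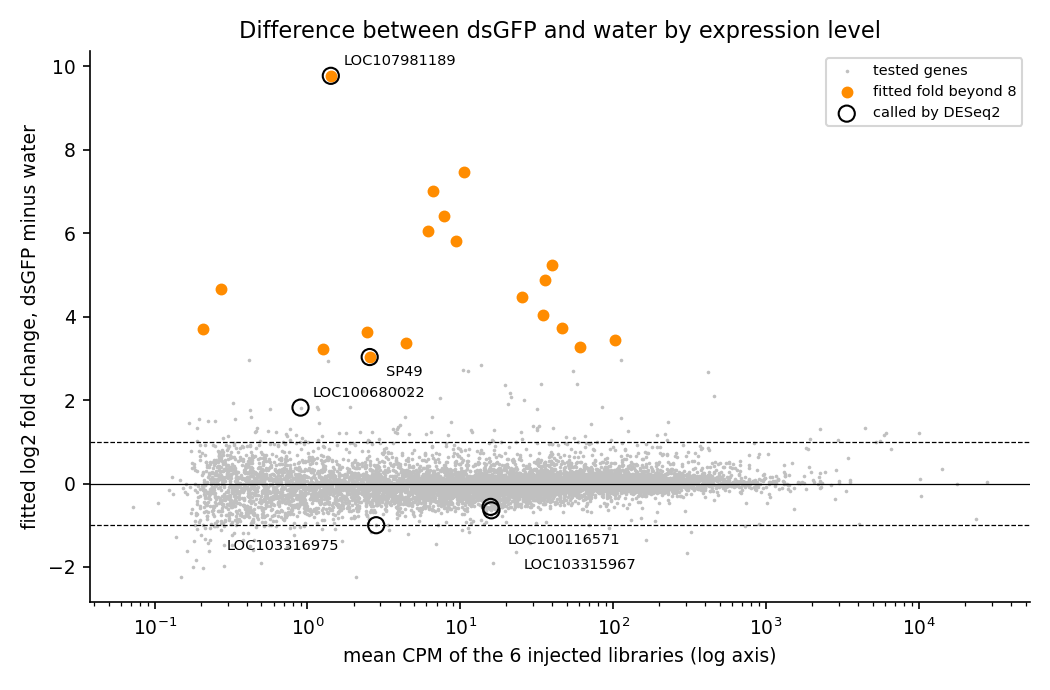
Fitted log2 fold change (dsGFP minus water, vertical axis) against the mean CPM of the 6 injected libraries (horizontal log axis) for the 11665 tested genes; dashed lines mark a 2-fold difference, filled orange points the 19 genes fitted beyond 8-fold and circles the 6 genes called by DESeq2. Most genes lie between the dashed lines, with a wider scatter at low levels, and the genes beyond 8-fold are all on the dsGFP side; the height of LOC107981189, at 0 in every water library, depends on the prior count.

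The genes with the firmest differences are named only by a locus number. LOC100680022, a protein-coding gene, had 1.37, 1.71 and 1.13 CPM in the dsGFP libraries and 0.342, 0.559 and 0.284 CPM in the water libraries. The groups stood apart, and the uninjected libraries, at 0.249 to 0.394 CPM, were like the water libraries. Its log2 fold change was 1.82 (SE 0.33), with a 95% interval of 2.14- to 5.80-fold, at 40 to 52 counts per dsGFP library (DESeq2 adjusted p = 0.0498, edgeR adjusted p = 0.702).

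The 3 genes that DESeq2 called lower had narrow ranges in both groups. LOC100116571 had 12.4, 11.5 and 13.5 CPM with dsGFP and 19.1, 19.4 and 19.98 CPM with water (log2 fold change -0.64, SE 0.11, DESeq2 adjusted p = 0.00239). All dsGFP values were below all water values, and the uninjected libraries, at 17.1 to 20.5 CPM, lay at the water level. LOC103315967 had 13.5, 11.9 and 12.9 CPM with dsGFP and 17.2, 20.3 and 18.9 CPM with water (-0.56, SE 0.11, DESeq2 adjusted p = 0.00807). LOC103316975 had 2.25, 1.48 and 1.89 CPM against 3.54, 3.92 and 3.81 CPM (-0.999, SE 0.21, DESeq2 adjusted p = 0.0498). In both, the groups again did not overlap, and the uninjected libraries (21.7 to 23.3 and 3.63 to 5.19 CPM) were at or above the water level.

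The last 2 of the DESeq2 calls rested on fewer libraries. SP49, a serine protease gene, had 3.83, 1.25 and 8.56 CPM with dsGFP and 0.941, 0.453 and 0.284 CPM with water. All dsGFP values were above all water values, although dsGFP 2 was close to water 1, and the interval was wide at 2.29- to 29.2-fold (log2 fold change 3.03, SE 0.79, DESeq2 adjusted p = 0.00807). LOC107981189 had 201, 0 and 94 counts in dsGFP 1, 2 and 3 and 0 in each water library, and it had 34.9 CPM in uninjected 2 and 0 in the other uninjected libraries. The groups overlapped at 0, and DESeq2 gave it an adjusted p = 3.54e-05 and edgeR an adjusted p = 0.943.

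**Figure D2:**
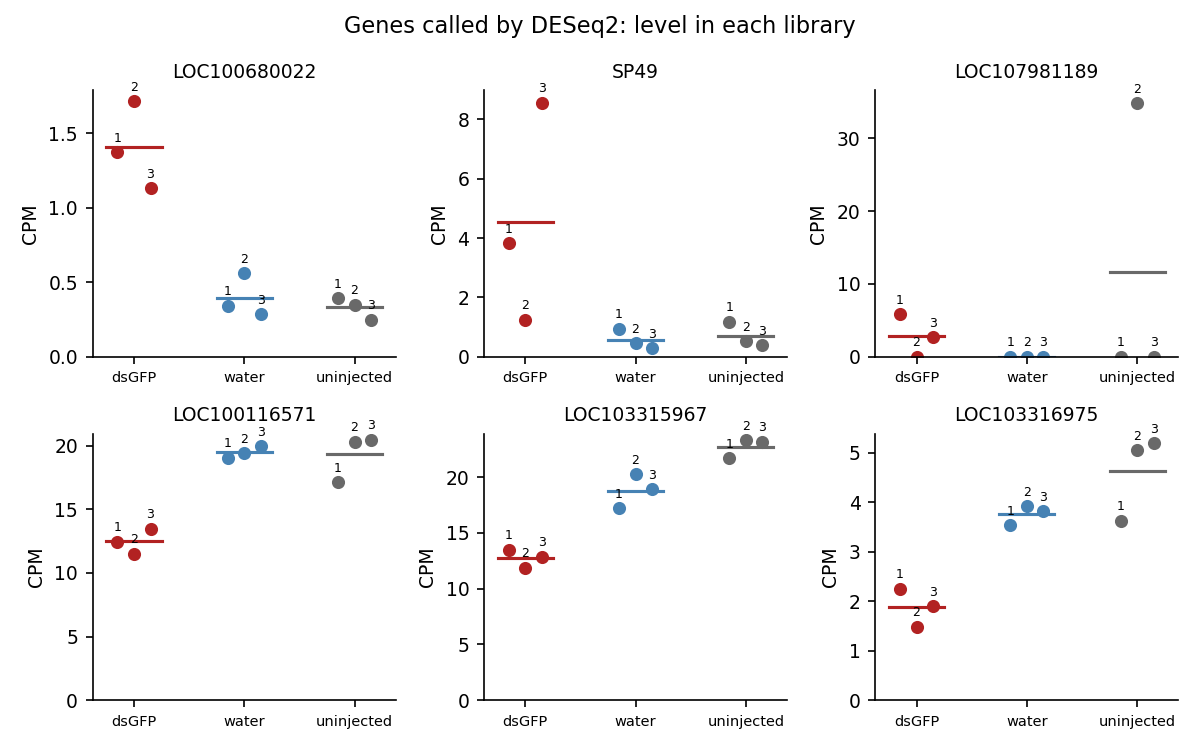
CPM in each library (points, numbered by replicate) with the mean of each group (line) for the 6 genes called by DESeq2, with linear axes from 0. In LOC100680022, LOC100116571, LOC103315967 and LOC103316975 the 3 dsGFP values stand apart from both other groups, while LOC107981189 is highest in uninjected 2.

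How many genes DESeq2 called depended on the uninjected libraries in the fit, although they are no part of the contrast. With only the 6 injected libraries, a fit chosen after seeing the data, it called 99 of 11429 genes (0.866%), 52 higher (0.455%) and 47 lower (0.411%). With uninjected 2 alone left out it called 29 of 11771 (0.246%), 15 higher (0.127%) and 14 lower (0.119%). Of the genes described above, LOC100680022, LOC100116571, LOC103315967 and LOC103316975, were called in all 3 of these fits, which share the same injected libraries, and SP49 and LOC107981189 in the 9-library fit alone. EdgeR called 0 genes in the matching fits, with a smallest adjusted p = 0.107 on the 6 libraries and 0.533 without uninjected 2.

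Of the 99 genes, 97 had groups that did not overlap. Over all tested genes every dsGFP library was above every water library for 4.77% and below for 7.57%. Because the 99 were called on these same libraries, the separation is no further evidence. The fold change was under 2 for 27 higher and all 47 lower genes. In a list were 3 of them, the storage protein gene Hex109, the yellow family gene Y-x1c and the lncRNA gene LOC103316810. The lists cover few genes, and the largest, of lncRNA genes, had 404 of the 11665 genes tested on all 9 libraries. The smallest adjusted p in that fit belonged to LOC100115743, a protein-coding gene with 60.5, 73.4 and 68.8 CPM with dsGFP and 36.8, 26.3 and 30.4 CPM with water (log2 fold change 1.12, SE 0.30 by edgeR). Its groups did not overlap, but its uninjected libraries spread from 23.1 to 55.8 CPM, and the adjusted p was 4.71e-09 by DESeq2 on 6 libraries, 0.0264 by DESeq2 without uninjected 2, 0.0817 by DESeq2 on all 9 and 0.702 by edgeR.

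Other genes with clear separation had moderate differences. SDR had 2748, 4180 and 4945 CPM with dsGFP and 2288, 1681 and 1791 CPM with water, so that dsGFP 1 lay close to the water range (log2 fold change 1.04, SE 0.27, 95% interval 1.36- to 3.13-fold). LOC100118424 had 87.0, 95.2 and 76.1 CPM against 63.6, 61.0 and 60.2 CPM, and its interval of 1.19- to 1.64-fold was wholly above no change and below 2-fold. LOC100117452 had 326, 256 and 377 CPM against 232, 198 and 189 CPM (0.63, SE 0.15). The gene next to it in the RefSeq annotation, LOC100119736, had 198, 97.4 and 206 CPM with dsGFP against 73.5, 33.2 and 62.3 CPM with water (1.57, SE 0.56). DESeq2 on the 6 injected libraries called SDR (adjusted p = 0.000564), LOC100118424 (0.0153) and LOC100117452 (0.0161), and without uninjected 2 it called SDR (0.0341) and LOC100117452 (0.0385). On all 9 libraries neither DESeq2 (adjusted p of 0.0995, 0.0817 and 0.0817) nor edgeR (0.702 each) called SDR, LOC100118424 or LOC100117452. In both neighbours, LOC100117452 and LOC100119736, dsGFP 2 was the lowest dsGFP library and lay above every water library. The whole 95% interval lay beyond 1.5-fold for 8 genes (0.0686%), LOC100680022 and SP49 among them, and the others were all at or below 1.36 CPM in every injected library.

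The widest fitted differences all pointed to higher levels with dsGFP and came from pools that were not alike. Beyond 8-fold were 19 genes, picked out after their values were seen, 18 of them protein coding, and all 19 were higher with dsGFP. In all 19 dsGFP 1 and dsGFP 3 were both above every water library, and in 12 the groups did not overlap. Every dsGFP library was above every water library for 4.77% of all tested genes. The choice by fitted fold favours such separation, which is therefore no further evidence. In 17 dsGFP 2 was the lowest dsGFP library. The highest of all 9 libraries was uninjected 2 for 16 of the 19. Only 2 of them had an unadjusted p under 0.05 by edgeR, and 11 lie next to another of the set in the RefSeq annotation.

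LOC100123729 had 76.2, 10.7 and 147 CPM with dsGFP and 4.05, 0.506 and 1.73 CPM with water. The groups stood apart, yet the uninjected libraries had 27.7, 294 and 0.415 CPM and so spanned both (log2 fold change 5.23, SE 1.98, edgeR adjusted p = 0.824). LOC100120544 had 94.4, 5.17 and 110 CPM against 2.94, 0.693 and 3.43 CPM, with uninjected libraries at 43.5, 445 and 1.47 CPM. LOC100462678 had 51.2, 0.362 and 12.0 CPM against 0.228, 0 and 0.129 CPM, and uninjected 2 had 83.0 CPM beside 0.210 and 0.0208 CPM in the others. In each of these genes an animal pool without dsRNA reached the highest level.

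**Figure D3:**
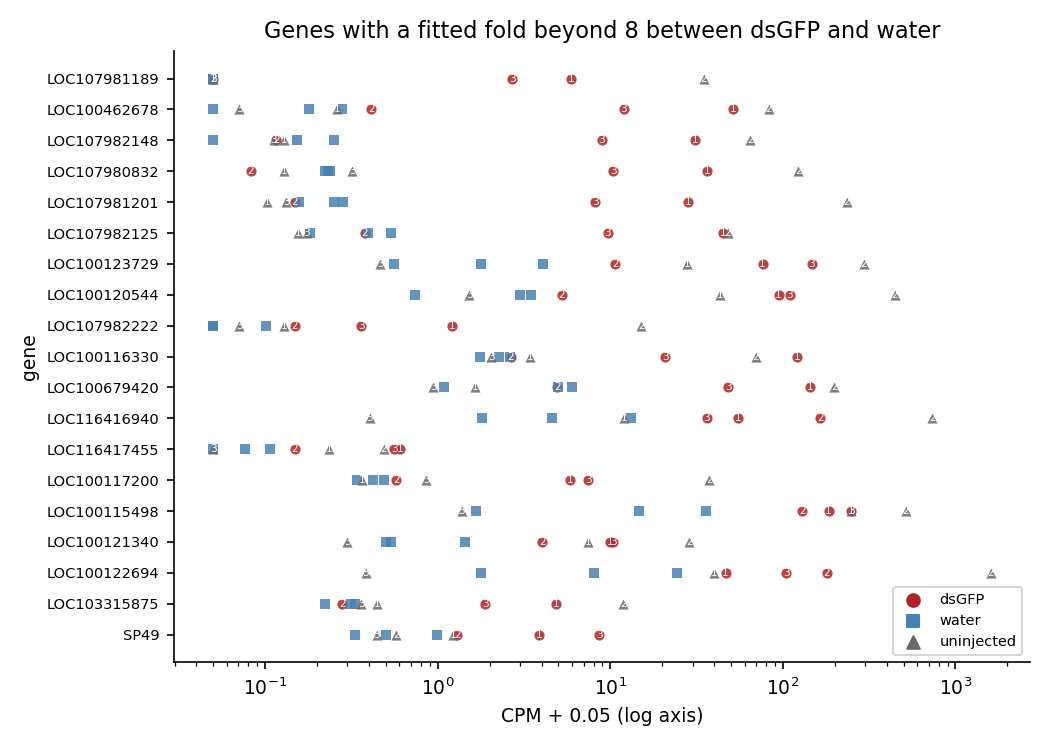
CPM plus 0.05 (horizontal log axis) in each library for the 19 genes with a fitted fold beyond 8; circles are dsGFP, squares water and triangles uninjected libraries, with replicate numbers in the dsGFP and uninjected symbols. DsGFP 1 and 3 lie to the right of every water library in all 19 genes, which the choice by fitted fold favours. Uninjected 2 is the rightmost point in 16.

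Of the genes of RNA interference, Tudor-sn alone could be recognised by its symbol, since 14496 of the rows carry only a locus number. Tudor-sn, which encodes a nuclease that joins the silencing complex in other animals, had 215, 274 and 268 CPM with dsGFP and 269, 264 and 204 CPM with water. Each group had a single low library, and the ranges overlapped almost wholly. Its fold change was held between 0.802 and 1.32.

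Immune genes defend against microbes through recognition, signalling, melanisation and antimicrobial peptides, and none of the 6 tested passed. The signal protein Imd, which links receptors to a transcription factor of the antibacterial response in Drosophila, had 41.9, 40.0 and 35.7 CPM with dsGFP and 35.2, 35.4 and 40.3 CPM with water, a fold change held between 0.898 and 1.25. The prophenoloxidase gene ppo3, of the family that makes melanin, had 218, 256 and 285 CPM against 241, 302 and 221 CPM, held between 0.800 and 1.23. For both the groups overlapped. The defensin gene Def1-1 had 64.3, 71.7 and 11.0 CPM with dsGFP and 36.5, 1.07 and 5.26 CPM with water, and Def1-2 had 155, 196 and 47.5 CPM against 82.8, 4.69 and 24.4 CPM. Both encode antimicrobial peptides, and both were lowest within their group in dsGFP 3 and water 2, as the summed cuticle list was. Their log2 fold changes of 1.78 (SE 2.25) and 1.83 (SE 1.89) had intervals of 0.0785- to 151-fold and 0.148- to 86.1-fold, and uninjected 2 was above every injected library, at 602 and 822 CPM. The list's median was 0.51, against 0.01 over all genes, and 3 of its 6 members were held within 2-fold, against 83.0%.

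Serine proteases and their inhibitors, the serpins, act in digestion, in melanisation cascades and in moulting. Of 52 genes 35 were tested, of which 26 had higher and 9 lower fitted values with dsGFP (51.9% and 48.1% of all genes). The median of 0.13 kept its sign in every setting tried (0.09 to 0.35). All dsGFP libraries were above all water libraries for 5 members (14.3%, against 4.77% of all genes), among them SP102, which had 10.7, 9.19 and 14.2 CPM against 8.47, 6.53 and 5.64 CPM (0.72, SE 0.30). Abundant members differed little or varied within the groups. SP142 had 234, 221 and 235 CPM against 223, 229 and 222 CPM, held between 0.849 and 1.24, whereas SP70 had 1223, 580 and 1811 CPM against 2052, 2271 and 1156 CPM. In SP70 the groups overlapped and the bound was 0.357 to 1.22. Only 13 of the 35 were held within 2-fold (37.1%, against 83.0%).

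Genes of the nervous system, such as ion channels, transmitter receptors and synaptic proteins, mostly had lower fitted values with dsGFP. Of 22 tested members 20 were lower and 2 higher (48.1% of all genes were lower), the median was -0.31, and it stayed between -0.38 and -0.20 in every setting tried. None was called by edgeR, DESeq2 or limma-voom on all 9 libraries, or by edgeR or DESeq2 on the 6 injected libraries. GluCl, a glutamate-gated chloride channel, had 19.8, 22.6 and 27.9 CPM with dsGFP and 31.0, 33.9 and 29.2 CPM with water (-0.42, SE 0.17). Its groups did not overlap, and dsGFP 3 was near water 3. The acetylcholine receptor subunit nAChRa1 had 14.5, 17.8 and 20.7 CPM against 21.8, 26.9 and 21.2 CPM (-0.40, SE 0.17), again without overlap. The potassium channel gene Slo had 26.3, 27.1 and 35.002 CPM against 32.1, 40.4 and 37.6 CPM, with dsGFP 3 above water 1.

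The size of the difference varied among members. Syt1, a calcium sensor of synaptic vesicles, had 35.5, 39.4 and 49.3 CPM against 48.2, 54.7 and 43.7 CPM (-0.24, SE 0.16). The neural transcription factor gene pros had 90.3, 125 and 113 CPM against 126, 117 and 98.4 CPM (-0.05, SE 0.17), held between 0.747 and 1.24. In both genes the groups overlapped. All dsGFP libraries were below all water libraries for 5 of the 22 (22.7%, against 7.57% of all genes). The shares of all genes are no reference matched by level, since the list's median level was 10.3 CPM. Of all genes, 60.2% at 1 to 10 CPM and 46.5% at 10 to 100 CPM had lower fitted values. The mean log2 CPM of the list was 2.97, 3.02 and 3.28 in the dsGFP libraries and 3.32, 3.44 and 3.31 in the water libraries, so that every dsGFP library was below every water library, dsGFP 3 by the least. For 20 members the interval lay within 2-fold (90.9%, against 83.0%). The part of other differences between the pools in these lower values was not tested beyond leaving out libraries. In whole animals fewer cells of a type and less RNA per cell cannot be told apart either.

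**Figure D4:**
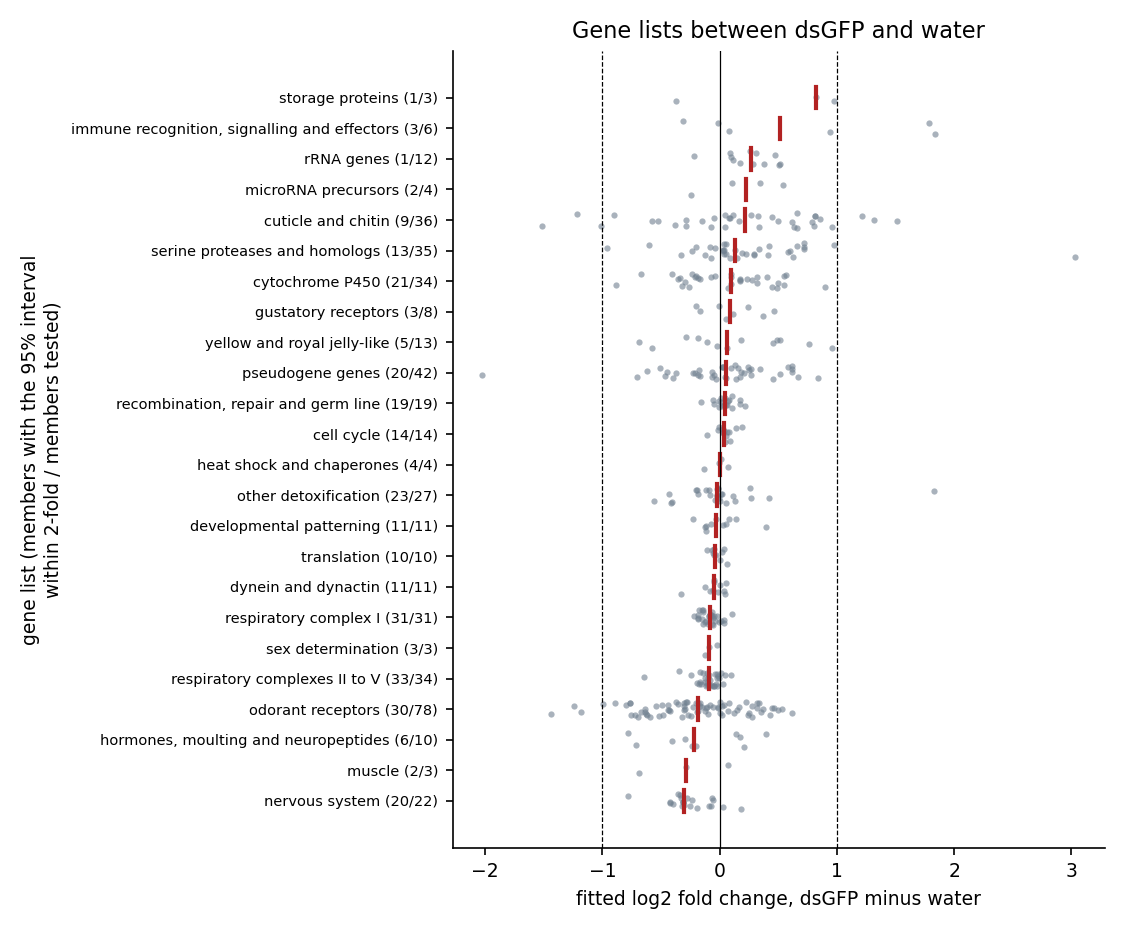
Fitted log2 fold change (dsGFP minus water, horizontal axis) of the tested members (grey points) of each gene list with 3 or more of them, lncRNA genes excepted, with the list's median (red bar); dashed lines mark a 2-fold difference, and the labels give how many members had their 95% interval within 2-fold out of those tested. Most medians lie within 0.3 of 0, and members of the respiration, translation, cell cycle and repair lists sit closest to it.

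Odorant receptors, the ion channels by which insect antennae detect odours, were low at this stage: 78 of 214 passed the filter on low counts, and 3 had 0 counts in all 9 libraries. Of the 78, 52 had lower (66.7%, against 48.1% of all genes) and 26 higher fitted values with dsGFP. The median was -0.19 (-0.29 to -0.07 over the settings tried). At an unadjusted p under 0.05 by edgeR, 9 were lower (11.5%, against 4.74%) and 0 higher. For 14 all dsGFP libraries were below all water libraries (17.9%, against 7.57%). These shares of all genes are no matched reference, since the list's median level was 0.536 CPM. Of all genes under 1 CPM, 56.4% had lower fitted values and 7.02% an unadjusted p under 0.05 in either direction. Or168 had 0.730, 0.198 and 0.509 CPM with dsGFP and 1.17, 1.31 and 0.979 CPM with water (-1.25, SE 0.43), and Or139 had 0.175, 0.198 and 0.367 CPM against 0.742, 0.426 and 0.541 CPM (-1.18, SE 0.38). In both the groups stood apart, at few counts. A receptor with more counts, Or261, had 7.19, 6.22 and 7.68 CPM against 10.3, 8.84 and 7.89 CPM (-0.36, SE 0.15), with dsGFP 3 just below water 3. Or187 had 5.90, 4.71 and 5.40 CPM against 5.62, 5.78 and 6.86 CPM, with overlap, and Or195 pointed the other way, at 10.9, 4.84 and 5.71 CPM against 5.13, 4.69 and 6.11 CPM. The list's mean log2 CPM was lowest in dsGFP 2, at -0.80, with -0.48 in dsGFP 1 and 3 and -0.45 to -0.28 in the water libraries. DsGFP 2 was also the shallowest library, and the part of depth was not tested. Of 46 gustatory receptors 8 were tested, with fold changes of Gr58 held between 0.900 and 1.21 and of Gr2 between 0.750 and 1.32, and of 3 odorant-binding protein genes only OBP19 was tested (0.679 to 1.82).

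The respiratory chain makes ATP in mitochondria, and its nuclear genes were among the most tightly bounded. Complex I, which takes electrons from NADH, had 31 tested subunit genes, 27 with lower and 4 with higher fitted values, and a median of -0.09. All 31 were held within 1.5-fold (64.3% of all genes were), and their bounds ran from 0.673 to 1.26. Ndufv1 had 178, 184 and 177 CPM with dsGFP and 165, 168 and 190 CPM with water, and Ndufs5 had 93.8, 71.1 and 87.3 CPM against 84.0, 101 and 108 CPM. For both the groups overlapped, and for Ndufs5 dsGFP 2 was the lowest. Complexes II to V had 34 tested genes, 30 lower and 4 higher, also with a median of -0.09, and 33 were held within 2-fold. The medians of both lists stayed below 0 in every setting tried, and came closest to it for complex I, at -0.01. The exception by the 95% interval was Cox7a1, a small subunit of cytochrome c oxidase, at 9.81, 7.08 and 8.53 CPM with dsGFP and 10.4, 14.7 and 14.7 CPM with water (-0.64, SE 0.17, 95% interval 0.493- to 0.830-fold). By the 2 one-sided tests Cox7a1 passed equivalence within 2-fold (adjusted p = 0.0365), as did all 34 genes. The groups of Cox7a1 did not overlap, although dsGFP 1 was close to water 1. Another subunit gene, Cox6c, had 9.32, 7.87 and 10.1 CPM against 10.7, 11.6 and 12.4 CPM (-0.35, SE 0.15), likewise without overlap. All dsGFP libraries were below all water libraries for 3 of the 34 genes (8.82%), near the 7.57% of all genes. Core subunits of ATP synthase overlapped, with Atp5b at 462, 572 and 569 CPM against 598, 581 and 392 CPM.

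**Figure D5:**
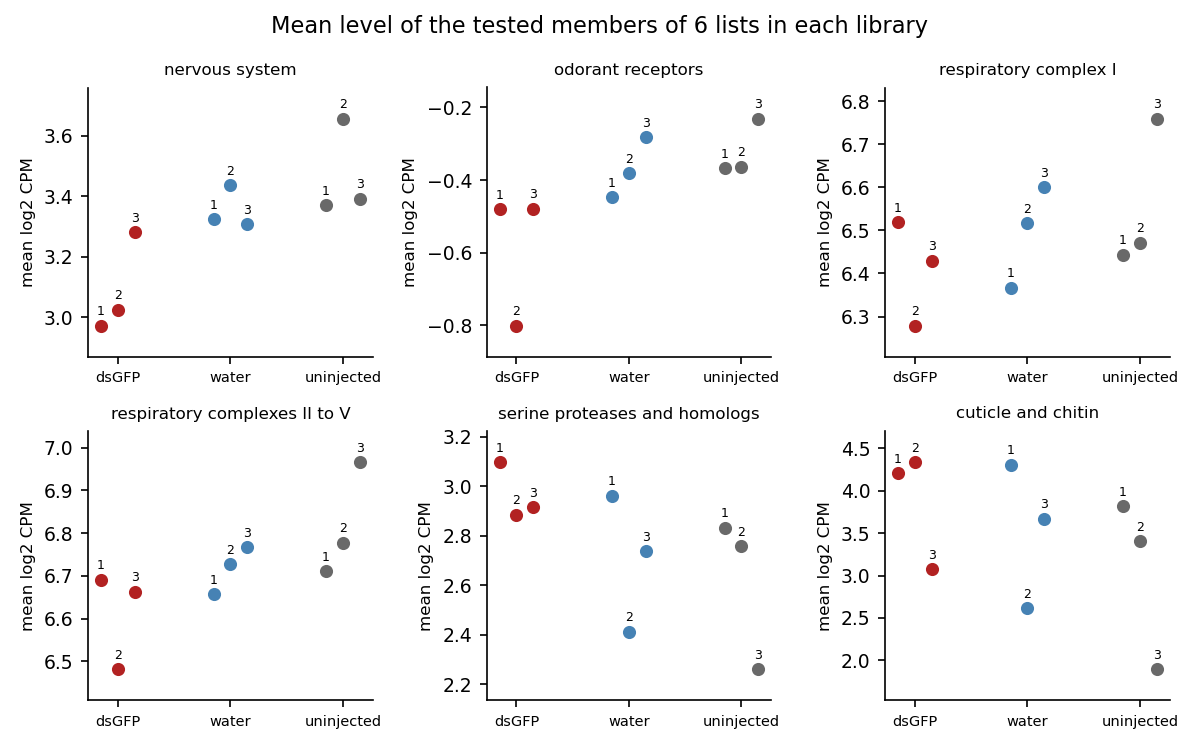
Mean log2 CPM (vertical axes, each with its own range) of the tested members of 6 lists in each library, numbered by replicate. Nervous system and odorant receptor means are lowest in dsGFP libraries, the respiration means are lowest in dsGFP 2 among the injected libraries, and the cuticle means are low in dsGFP 3 and water 2.

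Cuticular proteins bind chitin and form the exoskeleton, and their genes are switched on and off within each moult. They gave the loosest bounds of the larger lists: 36 of 47 were tested, 24 higher and 12 lower with a median of 0.21 that ranged from 0.01 to 0.87 over the settings tried, and only 9 were held within 2-fold (25.0%, against 83.0%). CPLCP2 had 9250, 14605 and 1274 CPM with dsGFP and 8408, 318 and 5554 CPM with water, and CPR1 had 7296, 15008 and 3100 CPM against 6549, 967 and 3443 CPM. Both genes were low in dsGFP 3 and lowest in water 2, the groups overlapped, and the bounds were 0.084 to 36.8 and 0.269 to 19.97. A few members at lower levels did not follow them. CPR44 had 0.438, 0.362 and 0.339 CPM against 0.571, 1.36 and 1.34 CPM (-1.52, SE 0.41, 95% interval 0.187- to 0.652-fold), with no overlap and with uninjected libraries higher still, at 2.26 to 4.67 CPM. CPR47 had 4.59, 3.72 and 5.85 CPM against 6.08, 8.12 and 6.96 CPM (-0.58, SE 0.22), also without overlap. The Osiris genes Osi7 and Osi8, of an insect family expressed with the cuticle, had no useful bound (0.0566 to 19.6 and 0.0411 to 12.5).

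Storage proteins are hexamerins that insects lay down before metamorphosis. Hex109 had 13.8, 25.7 and 21.9 CPM with dsGFP and 13.1, 9.51 and 8.61 CPM with water (0.98, SE 0.34), with dsGFP 1 near water 1 and no overlap; it was not called in the fits on all 9 libraries, and DESeq2 on the 6 injected libraries called it (adjusted p = 0.0153). Hex83 had 6.92, 14.1 and 13.4 CPM against 5.59, 8.42 and 5.46 CPM (0.82, SE 0.37). Hex70b pointed the other way, at 2340, 1997 and 3054 CPM against 2883, 4214 and 2458 CPM, with a bound of 0.542 to 1.10. In both of the latter the groups overlapped. Of the yellow and royal jelly-like family, which includes genes of pigmentation, 13 of 16 were tested, 7 higher and 6 lower. Y-x1c had 54.9, 81.6 and 74.4 CPM against 52.8, 32.5 and 39.3 CPM (0.76, SE 0.41), with dsGFP 1 just above water 1. DESeq2 on the 6 injected libraries called this gene too (adjusted p = 0.0279). The abundant member Y-f had 559, 465 and 584 CPM against 547, 641 and 645 CPM, held between 0.676 and 1.14.

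Cytochrome P450 enzymes oxidise hormones and foreign compounds, and 34 of their 43 genes were tested. Fitted values were higher with dsGFP for 19 and lower for 15, and the median of 0.10 turned to -0.03 without dsGFP 3. CYP6AQ5 had 346, 568 and 344 CPM with dsGFP and 342, 242 and 306 CPM with water (0.50, SE 0.22). Its groups did not overlap but nearly touched, with dsGFP 2 alone standing clear of the water range. CYP6AQ4 had 133, 157 and 182 CPM against 150, 147 and 144 CPM, with overlap and a bound of 0.866 to 1.32. Among 27 tested carboxylesterase and glutathione transferase genes 23 were held within 2-fold, with GstS8 held between 0.825 and 1.18 and GST-mic1 between 0.813 and 1.17. CCE-D5 had 1.34, 2.31 and 5.20 CPM against 1.57, 0.533 and 0.412 CPM, an overlap that left it unbounded (0.640 to 19.6). Of 10 genes of hormones and neuropeptides 6 were held within 2-fold. The ecdysone receptor gene Ecr had 296, 431 and 351 CPM against 344, 320 and 268 CPM (0.800 to 1.68), and CYP314A1, whose enzyme makes the active moulting hormone, had 28.5, 24.5 and 32.1 CPM against 30.9, 44.2 and 37.3 CPM (0.474 to 1.21). In both the groups overlapped.

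Lists of general cell functions were held close to no change, as were most genes at 10 to 1000 CPM. Within 1.5-fold were 64.3% of all genes, 81.4% of those at 10 to 100 CPM and 85.5% at 100 to 1000 CPM. Within 2-fold the shares were 83.0%, 94.1% and 93.9%. All 10 translation genes lay within 1.5-fold, with bounds from 0.771 to 1.31, and so did all 4 chaperone genes. The heat shock cognate HSC70 had 1490, 1854 and 1518 CPM with dsGFP and 1827, 1656 and 1327 CPM with water, and the elongation factor EF-1a had 2737, 3216 and 3099 CPM against 3349, 3254 and 2412 CPM. Their groups overlapped. All 14 cell cycle genes were held within 1.5-fold (0.776 to 1.47), 11 of them with higher fitted values, and the mitotic cyclin gene cycB had 48.8, 52.2 and 48.1 CPM against 49.9, 47.8 and 52.3 CPM, held between 0.870 and 1.14. Of 19 tested genes of recombination, repair and the germ line 14 had higher and 5 lower fitted values, the median of 0.05 turned to -0.01 without dsGFP 1, and all 19 were held within 2-fold. Pol-iota, a repair polymerase, had 50.6, 45.6 and 44.6 CPM against 41.2, 39.4 and 44.3 CPM (0.17, SE 0.10), with dsGFP 3 level with water 3.

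All 11 dynein and dynactin genes, of the motor that carries cargo along microtubules, were held within 2-fold (83.0% of all genes were). So were all 11 genes of developmental patterning. The dynein light chain gene TctexA had 5.61, 4.68 and 7.74 CPM against 7.56, 7.88 and 7.27 CPM, with dsGFP 3 inside the water range. The sex determination genes Tra, Dsx and Fru were each held within 1.5-fold (64.3% of all genes were). Of the 3 muscle genes the tropomyosin gene Tm1 was held between 0.861 and 1.27, and Tm2 had 23.8, 14.0 and 30.7 CPM against 28.4, 44.5 and 37.6 CPM (-0.69, SE 0.33), with dsGFP 3 above water 1.

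Among genes that make no protein, lncRNA genes were mostly lower in fitted value. Of 949 such genes 404 were tested, 259 lower and 145 higher with a median of -0.11 (-0.17 to -0.05 over the settings tried). All dsGFP libraries were below all water libraries for 62 (15.3%, against 7.57%) and above for 17 (4.21%, against 4.77%). LOC103316804 had 4.32, 4.31 and 4.46 CPM with dsGFP and 5.76, 7.73 and 6.62 CPM with water (-0.62, SE 0.15), and LOC107981135 had 0.584, 0.494 and 0.424 CPM against 0.171, 0.160 and 0.180 CPM (1.54, SE 0.38), at 6 to 20 counts a library. In both the groups stood well apart, in opposite directions. The list lies mostly at low levels, where lower fitted values were more frequent over all genes too. Of 245 rRNA genes 12 were tested, 11 higher and 1 lower with a median of 0.27, and 1 was held within 2-fold. These RNAs carry no poly(A) tail that the enrichment selects, and the injected groups overlapped, at 32.6 ± 5.83 and 26.8 ± 11.1 CPM over all rRNA genes (SD, n = 3 each; two-sided exact permutation p = 0.4). Of 53 microRNA precursor genes 4 were tested and 2 were held within 2-fold, and of 144 pseudogenes 42 were tested and 20 were.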

How the data were processed

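The authors deposited 1 table of STAR counts per library (STAR 2.6.1b, per the submitters' processing notes), made from poly(A)-enriched RNA read as 150-bp pairs, per the labels' protocols. No coordinates or sequences are printed, because for the genome build the sources used here give no name. The unstranded column of deposited counts was used, and the first strand column held 49.95 to 50.13% of stranded counts. Reads of overlapping antisense genes therefore cannot be told apart, and near-identical copies may be undercounted, since multimapped reads (0.776 to 0.863% in the injected libraries) were not counted. Rows numbering 12 without a gene name were dropped, with 0.0518 to 0.0608% of counts, and 14940 of the other 15418 matched the RefSeq table of assembly Nvit_psr_1.1, used for names, gene types and neighbours.

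All 9 libraries entered 1 fit with 3 groups in R 4.3.3: filterByExpr (minimum count 10, minimum total 15), TMM scaling, and edgeR 4.0.16 glmQLFit with robust estimation and glmQLFTest. Fold changes are dsGFP minus water on the log2 scale, standard errors come from the fit's weights and quasi-dispersion, intervals are unadjusted 95% intervals, and CPM uses effective library sizes. Pairs of 1-sided tests gave equivalence within 2-fold. DESeq2 1.42.0 and limma-voom (limma 3.58.1) were alternatives, as were 2 other scalings, no filter, the 6 injected libraries alone and a replicate block. Each injected library was also left out singly, and dsGFP 1, water 3 and uninjected 3 were left out together. Fits added later were DESeq2 on the 6 injected libraries, and DESeq2 and edgeR without uninjected 2. Intervals and the limit of 3 counts cover no more than these pools and counting error.

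Lists were 25 sets of gene symbols and 3 gene types, and they and the members were chosen with earlier results of these data known. Named genes are those called by DESeq2, the 10 with the smallest p, those with the 5 farthest intervals on each side, and per list up to 4 of smallest p and 3 of highest level, from which a selection is described. The edgeR fit alone was tested on simulated counts, drawn from its own estimates, and the DESeq2 and limma-voom fits were not.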

Additional observations from a re-analysis of the deposited data

How the results depend on the processing

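The count of called genes was 0 in every fit by edgeR and limma-voom (smallest adjusted p = 0.0719 without dsGFP 2, up to 0.9999 without water 2). DESeq2 called 6 genes on all 9 libraries, 99 on the 6 injected libraries and 29 without uninjected 2, and the cause was not tested. Genes at an unadjusted p under 0.05 numbered 322 higher and 672 lower by edgeR on the 6 injected libraries. By DESeq2 there were 442 higher and 591 lower on the same libraries, and 245 higher and 563 lower without uninjected 2. Leaving out 1 injected library at a time gave 53 to 266 higher and 238 to 744 lower. The counts held within 2-fold and within 1.5-fold stayed within 1.5 times in all 14 planned and 3 added settings. Of 161 named genes 40 had the opposite sign in at least 1 setting, as had the medians of 12 lists and of all genes. The labels do not say whether replicate numbers pair the libraries. Deviations from the group means correlated at 0.047, -0.330 and -0.208 for numbers 1, 2 and 3, and at -0.449 to 0.587 for unlike numbers. Deviations within a group of 3 depend on each other, so these correlations cannot decide on pairing. With a replicate block 0 genes were called by edgeR and 744 had an unadjusted p under 0.05. Of the genes under 1 CPM 22.7% were held within 2-fold, and the part of depth in this was not tested.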

Other observations

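Read pairs that did not align made up 5.56, 5.77 and 5.86% in the dsGFP libraries and 4.94, 5.17 and 5.84% in the water libraries, which overlapped (two-sided exact permutation p = 0.3), against 3.34, 3.11 and 2.63% in the uninjected libraries. Their identity is not analysed here.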
